A study of Mus musculus with 34 samples.

Results

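The MYC network is a set of transcription factors that pair through a shared basic helix-loop-helix leucine zipper domain, and 8 of its genes were followed in the limb bud RNA-seq: *Myc*, *Mycn*, *Mycl*, *Max*, *Mga*, *Mxi1*, *Mnt* and *Mlx*. They were picked by gene symbol from textbook knowledge of the network, with earlier results of these data known. All 8 were found among the 22040 protein-coding genes of the deposited table. RNA had been sequenced from mouse limb bud cells at E11.5, with 3 WT and 3 CKO biological replicates. The CKO embryos were *Prrx1-Cre;Hnrnpk* fl/fl, in which Cre removes the floxed part of *Hnrnpk* from limb bud mesenchyme, so that ectoderm, blood and other lineages that never express Cre keep the gene. The WT embryos are labelled *Hnrnpk* WT, and whether they carried floxed alleles or the Cre is not given in the sources used here. The values are FPKM, the fragments on a gene scaled to its exon length and to a library size that, judged from the values, carries a scaling between libraries. The reads on the listed genes, recovered from these values, numbered between 17140869 in CKO replicate 1 and 24624434 in CKO replicate 3.

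MYC proteins bind DNA as heterodimers with MAX at the E-box CACGTG and activate genes of growth, ribosome formation and metabolism. The MXD proteins, MXI1 among them, and MNT and MGA compete for MAX and repress genes through the E-box, while MLX carries a parallel arm that pairs with the nutrient-responsive factors MondoA and ChREBP. In the limb bud, *Mycn* is known to sustain the proliferation of undifferentiated mesenchyme, and hnRNP K is known as a binder of cytosine-rich DNA and RNA, including a cytosine-rich element of the *MYC* promoter.

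*Hnrnpk* itself had an FPKM of 193, 195 and 185 in WT against 127, 142 and 135 in CKO, in the order of replicates 1 to 3. Each CKO library was below each WT library, which is the order given by the labels. CKO minus WT was -0.50 on the log2 scale (SE 0.13, limma adjusted *p* = 0.334; exact two-sided permutation *p* = 0.1, the smallest that 3 libraries against 3 can give). It was called lower by voom with the replicate block (adjusted *p* = 0.0237), where 393 of 12294 genes were called lower. It was also called lower by limma in the libraries numbered 2 and 3 alone (adjusted *p* = 0.0377), where 984 of 12305 genes were. Limma with the replicate block did not call it (adjusted *p* = 0.0575). The FPKM covers the whole gene and not the floxed part alone. In bulk limb buds, fewer cells with a transcript and less of the transcript per cell cannot be told apart, and this holds for all genes described here.

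The tissue was checked with marker genes. All 10 limb mesenchyme markers passed the filter on low values (a mean FPKM of at least 0.5), with a summed FPKM of 410, 483 and 476 in WT and 433, 405 and 456 in CKO replicates 1, 2 and 3, and *Hoxd13* as the most abundant. Their median log2 fold change was -0.15, with 3 of 10 above 0. *Tbx5*, a forelimb gene, had 20.3, 19.1 and 19.2 FPKM in WT and 15.3, 7.30 and 9.58 FPKM in CKO replicates 1, 2 and 3, all CKO values being below all WT values. *Pitx1*, of the same list, had 37.7, 46.6 and 39.8 FPKM in WT and 48.9, 47.9 and 49.9 FPKM in CKO. Its CKO values were all above its WT values (log2 fold change 0.25, limma adjusted *p* = 0.663). The 10 ectoderm markers summed to between 48.1 and 83.1 FPKM, with *Krt5* the most abundant, and the 8 endothelium markers to between 18.3 and 36.5 FPKM, with *Cdh5* the most abundant. Muscle precursor markers (7 of 8 past the filter, *Actc1* the most abundant) summed to between 20.8 and 74.7 FPKM, macrophage markers (7 of 8, *C1qb*) to between 19.7 and 39.8 FPKM, and neural crest and nerve markers (4 of 8, *Tubb3*) to between 7.59 and 13.3 FPKM. None of these markers was at 0 in all libraries, and 0 were called. The log2 fold changes of all 8 endothelium markers were below 0 (median -0.37), and those of all 7 tested muscle precursor markers above 0 (median 0.50). The endothelium sums were 36.5 against 18.3 FPKM in WT and CKO replicate 1, and 26.5 and 29.1 against 28.5 and 26.5 FPKM in replicates 2 and 3, so the sums differed most in the libraries numbered 1. With the replicate block, *Tbx5* was called lower (-0.93, limma adjusted *p* = 0.0073, without the block 0.358) and *Actc1* higher (1.05, limma adjusted *p* = 0.0266, without the block 0.815). Red blood cell markers, 11 of 12 matched and *Hbb-y* the most abundant, made up 13.9%, 19.6% and 20.8% of the summed FPKM of WT and 11.9%, 32.6% and 23.7% of that of CKO, from replicate 1 to replicate 3. All 11 had a log2 fold change above 0 (median 0.43). The share was thus lowest in replicate 1 of both groups and highest in CKO replicate 2.

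Replicate 1 of both groups also stood apart from the other libraries over all 12305 tested genes, lying at one end of a first principal component that held 52.6% of the variance. Each member is therefore described by its value in every library. The plot of FPKM by library shows the members on this basis.

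**Figure D1:**
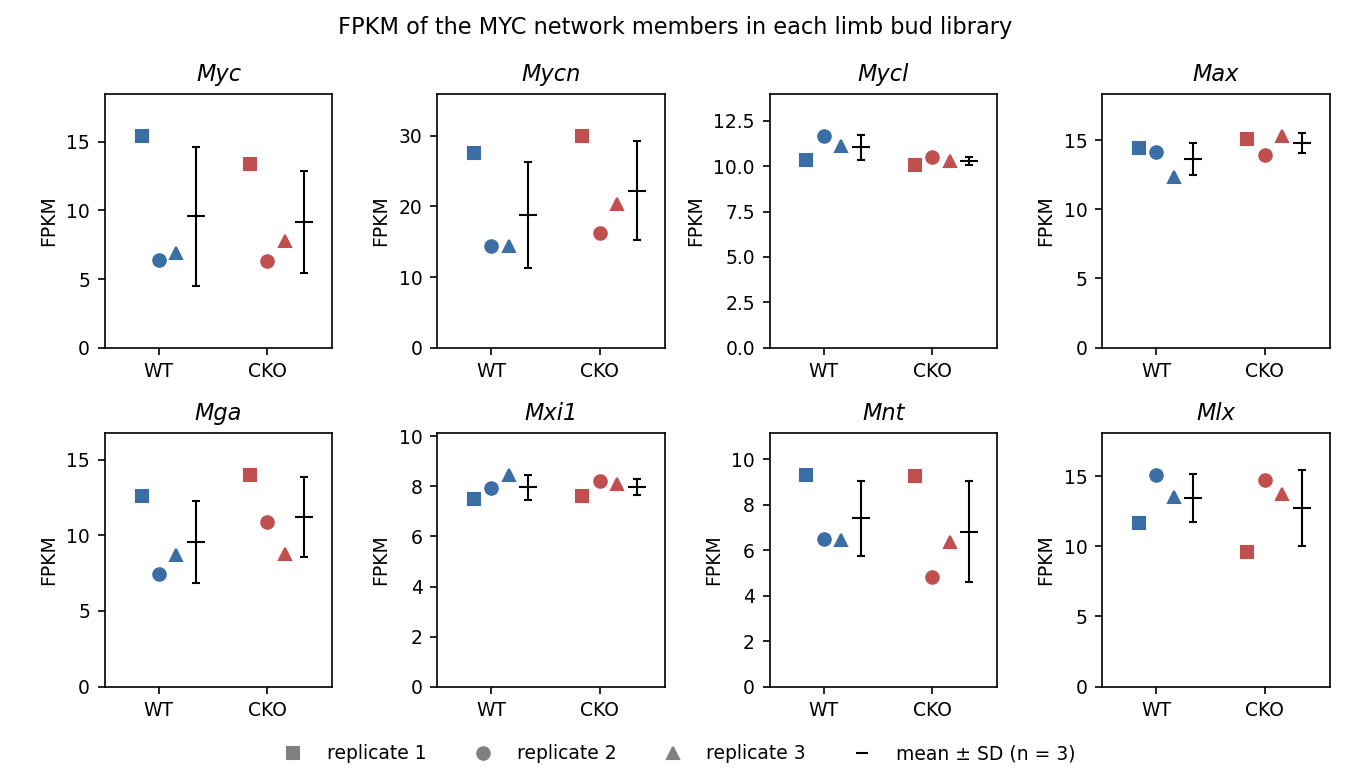
FPKM (y axis, from 0, a separate scale for each gene) of the 8 MYC network members in WT (blue) and CKO (red) limb buds; squares, circles and triangles are replicates 1, 2 and 3, and the black mark is the mean ± SD (n = 3). *Myc*, *Mycn*, *Mga* and *Mnt* are highest in replicate 1 of each group, and the WT and CKO points overlap for all 8 genes.

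No member passed the test for a difference between CKO and WT, which does not show that the levels are equal. Of the 8 members, all of which passed the filter, 0 were called higher and 0 lower by limma at an adjusted *p* of 0.05, where 7 genes (0.0569% of all 12305 tested) were called higher and 1 gene (0.00813%) lower. At an unadjusted *p* of 0.05 the counts were 0 of 8 members and 1022 (8.31%) of all genes. With the replicate number as a block, again 0 members were called in either direction, with 1 member (*Mycn*) and 2263 of all genes at an unadjusted *p* of 0.05, while over all genes the calls numbered 139 (1.13%) higher and 207 (1.68%) lower. Limma voom on the recovered reads also called 0 of the members, where 9 of 12294 genes were called higher and 1 lower. Values of CKO and WT overlapped in all 8 members, whereas 5.63% of all genes had every CKO value above every WT value and 8.86% every CKO value below. The log2 fold change was above 0 for 4 members and below 0 for the other 4. Their median of -0.0049 was 0.011 under median-ratio scaling and -0.11 after rescaling outside the red blood cell markers, and ran from -0.021 to 0.11 on leaving out single libraries. Over all tested genes the median was 0.0048, and the median size without sign was 0.14 there and 0.11 in the members.

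*Myc*, on chromosome 15, encodes c-MYC, the activator after which the family is named. Its FPKM, from replicate 1 to replicate 3, was 15.4, 6.38 and 6.92 in WT and 13.4, 6.34 and 7.76 in CKO. Replicate 1 was the highest library in each genotype, and the genotypes overlapped throughout. With a mean ± SD of 9.58 ± 5.08 in WT against 9.17 ± 3.73 in CKO (3 libraries each), CKO minus WT was -0.016 on the log2 scale, with a 95% interval from -0.91 to 0.88 (limma adjusted *p* = 0.995). The sign depended on the libraries used: leaving out WT replicate 1 gave 0.39, and leaving out CKO replicate 1 gave -0.32. Each of these unpaired fits keeps the high replicate 1 of the other genotype alone. With the replicate block the log2 fold change was again -0.016, with an SE of 0.11 against 0.38 without the block (limma adjusted *p* with the block 0.957). The values rested on 330 to 756 reads.

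*Mycn*, on chromosome 12, encodes N-MYC. Its FPKM was 27.5, 14.5 and 14.4 in WT and 30.0, 16.3 and 20.3 in CKO replicates 1, 2 and 3, the highest level of any member in 5 of the 6 libraries. CKO was above WT within each replicate number, by 0.12, 0.17 and 0.49 on the log2 scale, yet CKO replicates 2 and 3 were below WT replicate 1. The log2 fold change was 0.26 (95% interval -0.45 to 0.97, limma adjusted *p* = 0.871; exact permutation *p* = 0.5). With the replicate block it was the same, with a limma adjusted *p* of 0.225 (unadjusted 0.0336). It was between 0.024 without CKO replicate 1 and 0.57 without WT replicate 1. A CKO value above WT within every replicate number was found for *Mycn* and *Mga*, 2 of 8 members against 18.2% of all tested genes, and a CKO value below WT for *Mycl* and *Mnt*, 2 of 8 against 21.3%.

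*Mycl*, on chromosome 4, encodes L-MYC, a less potent activator of the same family. Its FPKM was 10.3, 11.7 and 11.1 in WT and 10.1, 10.52 and 10.3 in CKO replicates 1, 2 and 3. The level was the same within 1.16 times from the lowest to the highest library, and replicate 1 was the lowest of each genotype, unlike for *Myc* and *Mycn*. WT replicate 1 lay below CKO replicate 2, so the genotypes overlapped. On the log2 scale, CKO minus WT was -0.10 (95% interval -0.35 to 0.15, limma adjusted *p* = 0.867).

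Summed over the activators *Myc*, *Mycn* and *Mycl*, the FPKM was 53.3, 32.5 and 32.5 in WT and 53.5, 33.2 and 38.4 in CKO replicates 1, 2 and 3. Replicate 1 was ahead of the others in each genotype. By FPKM, *Mycn* held 46.9 ± 4.16% of the sum in WT against 52.8 ± 3.48% in CKO (mean ± SD of 3 libraries).

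*Max*, on chromosome 12, encodes the partner that MYC, MXD, MNT and MGA proteins all need. Its FPKM was 14.4, 14.2 and 12.3 in WT and 15.05, 13.9 and 15.3 in CKO replicates 1, 2 and 3. It was among the steadiest members, with the highest library 1.24 times the lowest and neither group's replicate 1 set apart. On the log2 scale, CKO minus WT was 0.12 (95% interval -0.15 to 0.39, limma adjusted *p* = 0.855).

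*Mga*, on chromosome 2, encodes a large MAX partner that is also a subunit of the Polycomb complex PRC1.6. Its FPKM was 12.6, 7.44 and 8.69 in WT and 14.0, 10.9 and 8.74 in CKO replicates 1, 2 and 3. The difference between the genotypes was largest in the libraries numbered 2, 0.54 on the log2 scale, and was 0.0083 in those numbered 3. CKO minus WT was 0.23 (95% interval -0.32 to 0.78, limma adjusted *p* = 0.856), and 0.060 on leaving out CKO replicate 1 or 0.45 on leaving out WT replicate 1.

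Among the repressors of the MXD type, *Mxi1*, on chromosome 19, had an FPKM of 7.48, 7.95 and 8.46 in WT and 7.63, 8.24 and 8.11 in CKO replicates 1, 2 and 3. The CKO values lay inside the range of the WT values. The log2 fold change was 0.0060 (95% interval -0.25 to 0.26, limma adjusted *p* = 0.994), and it was -0.10 when the libraries were rescaled to the summed FPKM outside the red blood cell markers. Its exons share 194 bases with a gene on the opposite strand.

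*Mnt*, on chromosome 11, encodes a widely expressed MAX partner that represses MYC targets. Its FPKM was 9.30, 6.47 and 6.44 in WT and 9.24, 4.83 and 6.37 in CKO replicates 1, 2 and 3. The libraries numbered 1 and 3 were nearly level between the genotypes and CKO replicate 2 was the lowest. On the log2 scale, CKO minus WT was -0.15 (95% interval -0.73 to 0.44, limma adjusted *p* = 0.915), and 0.073 without CKO replicate 2.

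*Mlx*, also on chromosome 11, encodes the partner of MondoA and ChREBP. Its FPKM was 11.7, 15.1 and 13.5 in WT and 9.62, 14.7 and 13.8 in CKO replicates 1, 2 and 3. Replicate 1 was the lowest library in each genotype, the reverse of *Myc* and *Mycn*. CKO minus WT was -0.095 (95% interval -0.53 to 0.33, limma adjusted *p* = 0.925), and 0.091 without CKO replicate 1. The *Mlx* exons share 385 bases with *Psmc3ip* on the opposite strand, and whether the counting used the strand is not given in the sources used here.

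**Figure D2:**
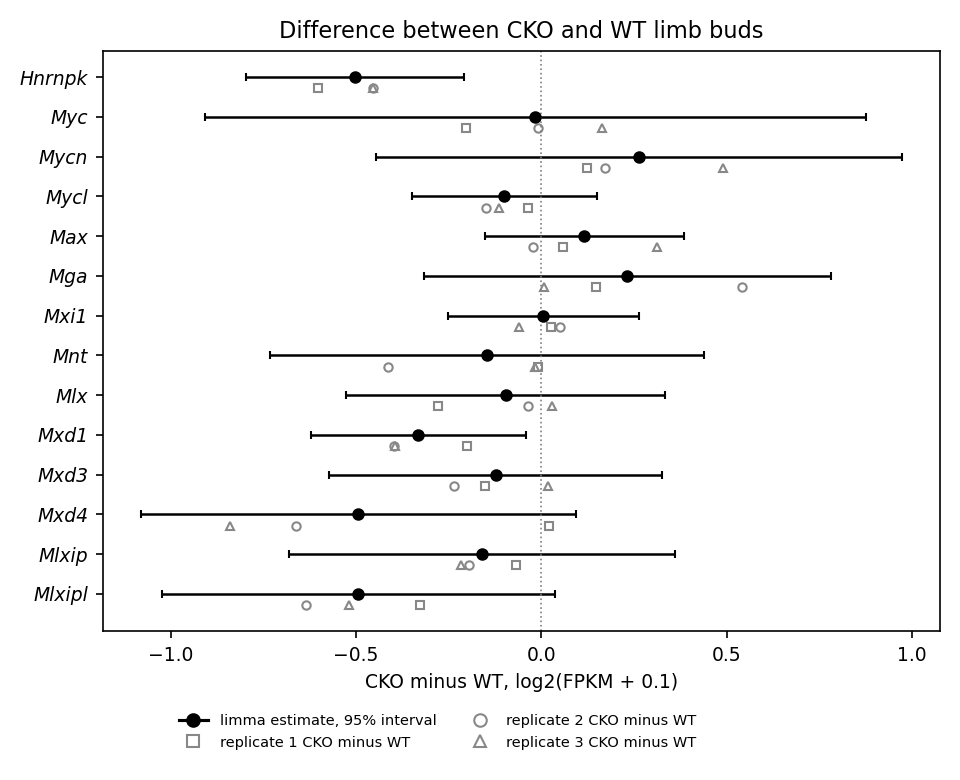
Difference between CKO and WT in log2(FPKM + 0.1) (x axis) for *Hnrnpk*, the 8 members and 5 further genes of the network; black points are limma estimates with their 95% intervals, and open grey marks are the differences between libraries of the same replicate number. The interval of every member includes 0, and those of *Myc* and *Mycn* are the widest of the 8.

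By mean level per exon length, the order in WT was *Mycn* (18.8 FPKM), *Max* (13.6), *Mlx* (13.4), *Mycl* (11.04), *Myc* (9.58), *Mga* (9.58), *Mxi1* (7.96) and *Mnt* (7.40). In CKO it was *Mycn* (22.2 FPKM), *Max* (14.8), *Mlx* (12.7), *Mga* (11.2), *Mycl* (10.3), *Myc* (9.17), *Mxi1* (7.99) and *Mnt* (6.81). Neighbours in this order differed by less than the larger of their SDs, apart from *Mlx* and *Mycl* in WT and *Mycn* and *Max* in CKO. The SD of *Mycn* was 7.55 in WT and 7.03 in CKO, as replicate 1 lay far above the others.

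The 5 further genes of the network, all tested, complete the repressor and MLX arms, and 0 of them were called. *Mxd1*, a MAX-dependent repressor linked to differentiation, had an FPKM of 3.07, 3.47 and 3.42 in WT and 2.66, 2.61 and 2.57 in CKO replicates 1, 2 and 3. Every CKO value was below every WT value. CKO minus WT was -0.33 (95% interval -0.62 to -0.041), which did not pass the adjusted threshold (limma adjusted *p* = 0.551; exact permutation *p* = 0.1). *Mlxipl*, which encodes ChREBP, was low, at 0.701, 0.626 and 0.596 FPKM in WT and 0.539, 0.368 and 0.386 in CKO replicates 1, 2 and 3, on 39 to 83 reads. Here too the CKO values were all below the WT values, with a log2 fold change of -0.49 (limma adjusted *p* = 0.632). *Mxd1* and *Mlxipl* make 2 of 5 such genes, read against 8.86% of all tested genes.

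*Mxd4*, another MAX-dependent repressor, had an FPKM of 5.26, 10.1 and 10.2 in WT and 5.34, 6.33 and 5.68 in CKO replicates 1, 2 and 3. WT replicate 1 lay with the CKO libraries, and WT replicates 2 and 3 were above all others. The log2 fold change was -0.49 (95% interval -1.08 to 0.094, limma adjusted *p* = 0.676). In the libraries numbered 2 and 3 alone it was -0.75 (limma adjusted *p* = 0.00011), where 984 of 12305 genes were called lower. With voom and the replicate block it was -0.51 (adjusted *p* = 0.0305), where 393 of 12294 genes were called lower. *Mxd4* was not called by limma with the replicate block (adjusted *p* = 0.102). The *Mxd4* exons share 514 bases with an antisense gene.

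*Mxd3*, a repressor found in dividing cells, had an FPKM of 5.48, 8.06 and 6.89 in WT and 4.92, 6.83 and 6.97 in CKO replicates 1, 2 and 3 (log2 fold change -0.12, limma adjusted *p* = 0.908). *Mlxip*, which encodes MondoA, had an FPKM of 10.01, 6.64 and 7.57 in WT and 9.55, 5.79 and 6.50 in CKO replicates 1, 2 and 3 (log2 fold change -0.16, limma adjusted *p* = 0.894). Replicate 1 of each genotype was the lowest for *Mxd3* and the highest for *Mlxip*. The log2 fold changes of all 5 genes were below 0, with a median of -0.33, and this median stayed below 0 under every alternative run, from -0.43 to -0.20. The repressors *Mxi1*, *Mxd1*, *Mxd3*, *Mxd4* and *Mnt* together had 30.6, 36.0 and 35.4 FPKM in WT and 29.8, 28.8 and 29.7 FPKM in CKO replicates 1, 2 and 3. Every CKO sum was below every WT sum. *Mga*, which also competes for MAX, is left out of this sum. Its CKO value was above WT within each replicate number, by 0.15, 0.54 and 0.0083 on the log2 scale. The summed activator level divided by the repressor sum was 1.74, 0.903 and 0.917 in WT and 1.79, 1.15 and 1.29 in CKO. Replicate 1 was again the highest in both genotypes, and CKO was above WT within each replicate number. The repressor sum and this ratio depend on which repressors are summed. Both leave out *Mga*, and neither was tested.

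**Figure D3:**
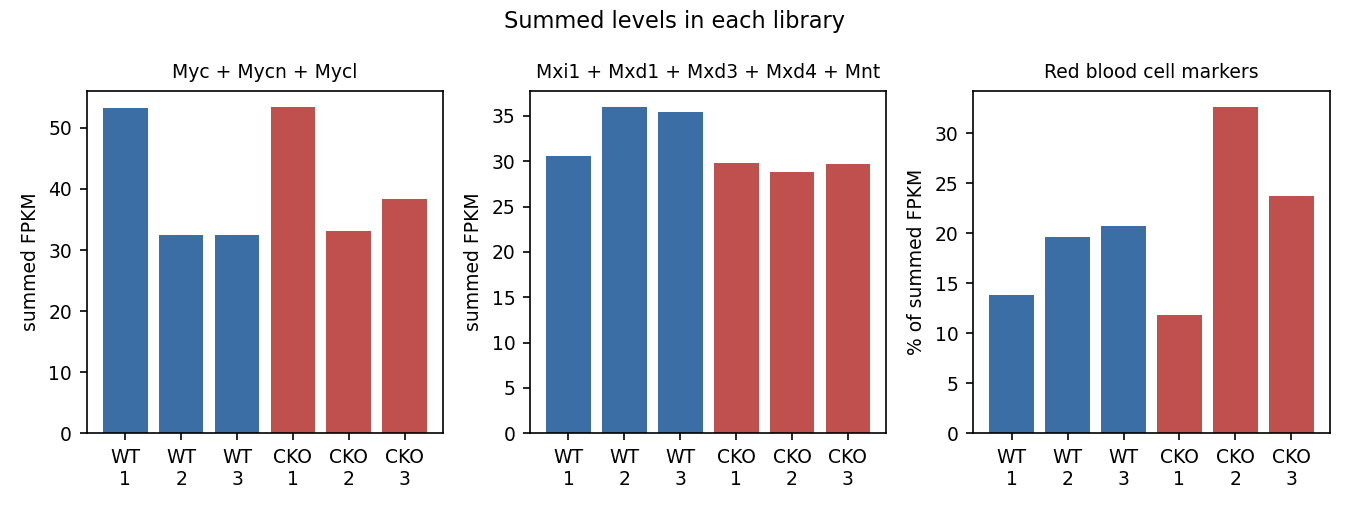
Summed FPKM (y axis, from 0) of the activators, left, and of the MXD repressors and *Mnt* without *Mga*, middle, and the percent of summed FPKM held by red blood cell markers, right, in WT (blue) and CKO (red) replicates 1 to 3. The activators are highest and the red blood cell share lowest in replicate 1 of both genotypes.

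The libraries of a genotype also differed among themselves. Replicate 1 was the highest of its group in both groups for *Myc*, *Mycn*, *Mga* and *Mnt*, 4 of 8 members against 29.3% of all tested genes, and the lowest in both for *Mycl*, *Mxi1* and *Mlx*, 3 of 8 against 30.9%. These counts were made after the values had been seen. The FPKM of *Myc* in replicate 1 was 2.32 times the mean of replicates 2 and 3 in WT and 1.90 times in CKO. The same ratio was 1.91 and 1.64 for *Mycn*, 1.56 and 1.43 for *Mga*, and 1.44 and 1.65 for *Mnt*, whereas for *Mlx* it was 0.818 and 0.676. Replicate 1 of each genotype also had the lowest share of red blood cell markers. After rescaling to the summed FPKM outside these markers, the ratio was 2.48 in WT and 2.34 in CKO for *Myc*, and 2.04 and 2.02 for *Mycn*. The rescaling multiplies all genes of a library by the same factor, so which genes are lowest or highest in replicate 1 depends on it: *Mlx* was lowest in both genotypes with and without it, *Mycl* and *Mxi1* without it alone, and *Max* was highest in both with it alone. Other traits of these libraries may move with the ratio, and their part in it was not tested.

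**Figure D4:**
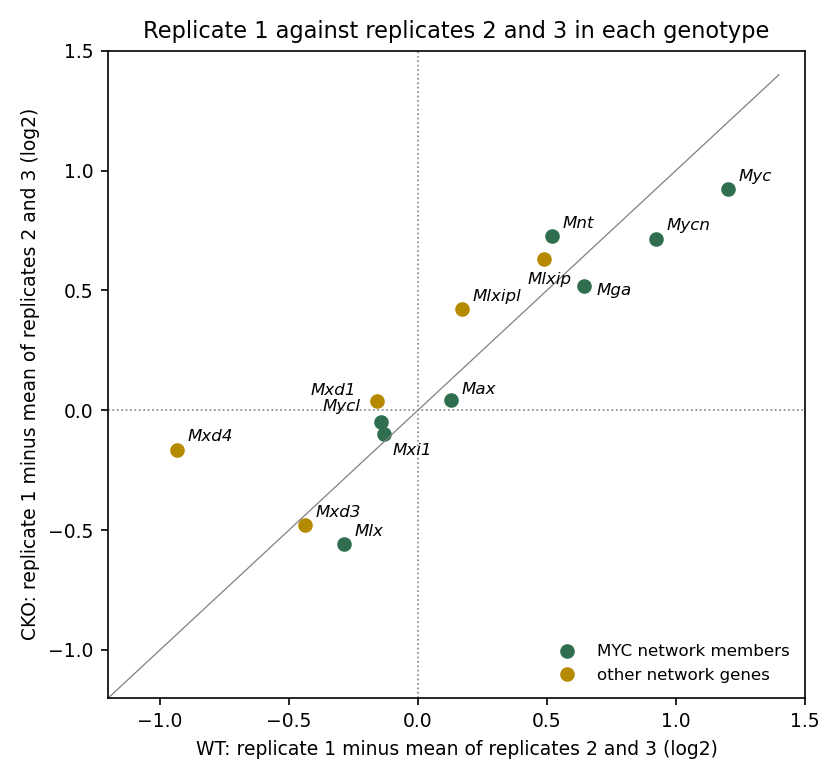
Replicate 1 minus the mean of replicates 2 and 3 in log2(FPKM + 0.1), in WT (x axis) and CKO (y axis), for the 8 members (green) and 5 further network genes (yellow); the solid line marks equal values. *Myc* and *Mycn* lie at the upper right, *Mlx* at the lower left, and *Mxd4* departs from the line, with -0.93 in WT and -0.16 in CKO.

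For each member, the 2 genes most like it over the 6 libraries were sought among the 7431 tested genes whose mean FPKM reached 5, by Pearson's r of log2(FPKM + 0.1). For *Myc* they were *Ctgf* (r = 0.997) and *Trim71* (r = 0.995). *Ctgf* had 11.7, 3.46 and 3.81 FPKM in WT and 10.6, 3.29 and 4.28 FPKM in CKO replicates 1, 2 and 3, with the same high replicate 1. For *Mycn* they were *Eif4g1* (r = 0.996) and *Helq* (r = 0.996), for *Mga* *Aff2* and *Son* (r = 0.998 each), and for *Mnt* *Arhgef2* and *Tob2* (r = 0.996 each). For *Mycl* they were *Tagln3* (r = 0.993) and *B3galnt1* (r = 0.983), and for *Max* *Xab2* (r = 0.990) and *Cdc20* (r = 0.979). For *Mxi1* they were *Zfp808* (r = 0.994) and *Ccdc71l* (r = 0.987), and for *Mlx* *Psme2b* and *Rbx1* (r = 0.998 each). With 6 libraries and 7431 genes, such values describe the libraries. Replicate 1 stands apart for *Myc*, *Mycn*, *Mga*, *Mnt* and *Mlx*, and r without it was not computed.

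Promoters of the network were searched for the E-box CACGTG, the site of MAX dimers, and for the cytosine patch CCCTCCC, a run of the kind that hnRNP K binds, the protein removed in CKO. The promoter sequences of 300 bases around the start site come from RefSeq on GRCm38.p6, and 12 of the 13 network genes were matched, with no entry for *Myc*. The E-box, which reads the same on both strands, was in the promoters of *Max*, *Mnt* and *Mlx*, 3 of 7 matched members, and of *Mxd4* and *Mlxipl* among the 5 further genes. It was in 7.15% of all 32851 promoters. The patch CCCTCCC, on either strand, was in promoters of *Mycn*, *Mycl*, *Mga* and *Mxi1*, 4 of 7 matched members, and of *Mxd3*, *Mlxip* and *Mlxipl*, against 21.95% of all promoters. A gene was counted when any of its entries held the motif, whereas the shares are of entries: the patch is in 1 of 3 entries of *Mxi1*, and each motif in 1 of 2 entries of *Mlxipl*. The motifs share no bases. The sequences of *Mycn* (chr12:12941787-12942086 on the minus strand), *Max* (chr12:76962199-76962498 on the minus strand), *Mnt* (chr11:74830674-74830973 on the plus strand), *Mlx* (chr11:101087040-101087339 on the plus strand) and *Mxd4* (chr5:34187661-34187960 on the minus strand) are shown 5′ to 3′ in the direction of transcription: the member with the highest level, the shared partner and further genes with an E-box. Capitals mark the patch in *Mycn* and the E-box in the others.
Mycn: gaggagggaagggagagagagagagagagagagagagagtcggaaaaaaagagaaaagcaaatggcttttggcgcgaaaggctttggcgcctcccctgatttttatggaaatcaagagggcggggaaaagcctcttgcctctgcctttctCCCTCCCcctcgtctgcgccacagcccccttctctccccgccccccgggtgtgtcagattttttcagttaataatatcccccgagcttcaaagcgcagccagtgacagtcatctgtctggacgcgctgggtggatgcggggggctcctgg
Max: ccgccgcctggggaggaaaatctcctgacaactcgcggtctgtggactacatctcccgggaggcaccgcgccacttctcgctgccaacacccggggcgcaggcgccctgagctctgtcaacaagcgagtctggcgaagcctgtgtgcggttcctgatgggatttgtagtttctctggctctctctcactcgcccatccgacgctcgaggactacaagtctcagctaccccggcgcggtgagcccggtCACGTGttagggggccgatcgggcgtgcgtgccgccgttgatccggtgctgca
Mnt: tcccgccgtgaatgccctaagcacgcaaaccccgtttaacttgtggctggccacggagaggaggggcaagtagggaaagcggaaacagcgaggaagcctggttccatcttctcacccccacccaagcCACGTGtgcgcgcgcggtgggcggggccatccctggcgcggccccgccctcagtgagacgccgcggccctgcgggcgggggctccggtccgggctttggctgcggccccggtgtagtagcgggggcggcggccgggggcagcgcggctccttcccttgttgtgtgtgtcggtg
Mlx: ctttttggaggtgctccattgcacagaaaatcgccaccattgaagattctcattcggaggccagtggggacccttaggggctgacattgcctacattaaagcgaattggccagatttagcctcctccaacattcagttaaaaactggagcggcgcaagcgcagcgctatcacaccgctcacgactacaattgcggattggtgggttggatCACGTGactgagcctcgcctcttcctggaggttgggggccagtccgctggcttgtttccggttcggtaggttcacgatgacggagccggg
Mxd4: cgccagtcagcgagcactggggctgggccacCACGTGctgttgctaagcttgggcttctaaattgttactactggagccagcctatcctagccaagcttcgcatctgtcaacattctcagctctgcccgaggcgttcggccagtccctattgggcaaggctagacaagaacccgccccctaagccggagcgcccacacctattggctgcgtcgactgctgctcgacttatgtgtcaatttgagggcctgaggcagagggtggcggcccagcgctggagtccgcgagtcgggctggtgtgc
Both *Mnt*, with a high replicate 1, and *Mlx*, with a low one, hold an E-box. Whether the motifs go with the pattern over the libraries was not tested. A match is a description of the sequence and does not show that a protein binds there.

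Genes that act with the network were read from lists, each described by its counts and median. Of 16 MYC coactivator genes, 16 were tested and 0 called, with a median log2 fold change of 0.050 (10 above 0; -0.056 after rescaling outside the red blood cell markers and -0.062 without CKO replicate 1), from -0.11 for *Trrap*, a scaffold of histone acetyltransferases, to 0.24 for *Ccnt1*, a subunit of the elongation kinase. The 10 SIN3 corepressor genes, through which MXD proteins and MNT repress, had 0 calls and a median of 0.012 (-0.093 after the same rescaling, -0.041 under quantile normalization and -0.013 without WT replicate 1), from -0.17 for *Sin3b* to 0.17 for *Rbbp7*. The 10 PRC1.6 genes had 0 calls and a median of 0.017 (-0.089 after the rescaling and -0.013 without CKO replicate 2), from -0.10 for *Pcgf6* to 0.22 for *Cbx3*. Over all tested genes the median was 0.0048.

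Of 14 genes for the turnover of MYC protein, 12 were tested, 0 were called and the median was -0.043, with values from -0.14 to 0.019 on leaving out single libraries. The highest was *Aurka*, a mitotic kinase that stabilises N-MYC (0.17), and the lowest *Usp28*, a deubiquitinase that stabilises MYC. *Usp28* had 9.95, 7.78 and 8.41 FPKM in WT and 7.74, 5.95 and 5.98 FPKM in CKO replicates 1, 2 and 3. All its CKO values were below all WT values, with a log2 fold change of -0.41 that did not pass the threshold (limma adjusted *p* = 0.553). It was called lower by voom with the replicate block (adjusted *p* = 0.0375), where 393 of 12294 genes were called lower. It was also called lower by limma in the libraries numbered 2 and 3 alone (adjusted *p* = 0.0211), where 984 of 12305 genes were. Limma with the replicate block did not call it (adjusted *p* = 0.0624). Of 14 genes whose products bind the *Myc* promoter or mRNA, 13 were tested, 0 were called and the median was 0.12 (10 above 0; 0.014 after the rescaling and 0.076 without CKO replicate 1). The lowest was *Hnrnpd* (-0.20, and -0.032 without CKO replicate 2) and the highest *Fubp1*, which encodes a protein that binds upstream of *Myc*. *Fubp1* had 32.3, 29.1 and 29.2 FPKM in WT and 38.1, 40.4 and 36.2 FPKM in CKO replicates 1, 2 and 3. All its CKO values were above all WT values, with a log2 fold change of 0.34 (limma adjusted *p* = 0.473, and 0.0350 in the libraries numbered 2 and 3 alone). The fit of those libraries called 867 of 12305 genes higher.

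Of 19 FGF, Wnt and hedgehog genes of the limb bud, 18 were tested and 0 called, with a median of 0.073 (-0.033 after the rescaling, -0.047 without CKO replicate 1 and 0.26 without CKO replicate 2). The highest was the FGF ligand *Fgf9* (0.58, and 0.28 without WT replicate 1) and the lowest the receptor *Fgfr2* (-0.39). *Fgfr2* was called lower by voom with the replicate block (adjusted *p* = 0.0427), where 393 of 12294 genes were called lower. It was also called lower by limma in the libraries numbered 2 and 3 alone (adjusted *p* = 0.0197), where 984 of 12305 genes were. It was not called by limma with the replicate block (adjusted *p* = 0.0927). *Spry4*, an inhibitor induced by FGF signalling, had 9.80, 6.18 and 6.91 FPKM in WT and 13.6, 9.05 and 11.1 FPKM in CKO replicates 1, 2 and 3. CKO was higher within each replicate number. The log2 fold change was 0.56, which was not called without the block (limma adjusted *p* = 0.552) and was called higher with the replicate block (limma adjusted *p* = 0.0167).

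The targets of MYC were read from 32 genes known to be raised by it, all tested, of which 0 were called. Their median log2 fold change was 0.22, with 28 above 0 and 4 below, against 6264 above and 6041 below over all tested genes. The highest was *Npm1*, a nucleolar protein gene, with 654, 682 and 649 FPKM in WT and 697, 1162 and 1009 FPKM in CKO replicates 1, 2 and 3. All its CKO values were above all WT values, with a log2 fold change of 0.50 (limma adjusted *p* = 0.635, and 0.0195 in the libraries numbered 2 and 3 alone). The fit of those libraries called 867 of 12305 genes higher. The lowest was *Ubtf*, a factor of RNA polymerase I transcription (-0.12). Endothelium, muscle precursor and red blood cell markers also lay on one side of 0. Above 0 were 8 of 10 ectoderm markers (median 0.15), 6 of 7 macrophage markers (0.35) and 3 of 4 neural crest and nerve markers (0.28). Of the limb mesenchyme markers, 3 of 10 were. Whether a change in the mix of cells moved the induced genes was not tested. The median of the induced genes was above 0 under every alternative run, from 0.11 after rescaling outside the red blood cell markers to 0.34 in the libraries numbered 2 and 3 alone. In the 12 proliferation genes, 0 were called and the median was 0.15 (11 above 0), from -0.025 for *Mcm6* to 0.27 for *Mcm3*, while without CKO replicate 2 the median was -0.0028. Replicate 1 was the highest of its group in both groups, as for *Myc* and *Mycn*, in 5 of the 32 induced genes and 0 of the 12 proliferation genes. The share over all tested genes was 29.3%. It was the lowest in both for 6 of the 32 and 6 of the 12, against 30.9% of all tested genes. These counts were not tested.

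Of 8 genes known to be lowered by MYC, 7 were tested, with a median of -0.058 (from -0.15 without WT replicate 1 to 0.18 without CKO replicate 1), and 1 was called higher in CKO. This was *Cdkn1a*, the cell cycle inhibitor p21, which is also a target of p53. Its FPKM was 4.44, 6.60 and 5.59 in WT and 21.5, 26.5 and 28.3 in CKO replicates 1, 2 and 3. Every CKO library was far above every WT library, with a log2 fold change of 2.19 (SE 0.18, limma adjusted *p* = 0.0101). The call was lost without WT replicate 3 (adjusted *p* = 0.117), CKO replicate 2 (0.0782) or CKO replicate 3 (0.117) and in an ordinary linear model (0.25), while the log2 fold change stayed between 2.02 and 2.32. *Gadd45a*, which is a p53 target as well, was the lowest of the list at -0.15, and -0.0025 without CKO replicate 1. The 6 targets of MondoA and ChREBP had 0 calls and a median of 0.065 (-0.041 after the rescaling and -0.031 without CKO replicate 1). The lowest was *Arrdc4*, an arrestin-like regulator (-0.27, and -0.062 without CKO replicate 1). The highest was *Pklr*, the liver and red cell pyruvate kinase (0.22, and -0.019 without WT replicate 2). *Pklr* was called higher in the libraries numbered 2 and 3 alone, at 0.61 (limma adjusted *p* = 0.0011), where 867 of 12305 genes were called higher.

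**Figure D5:**
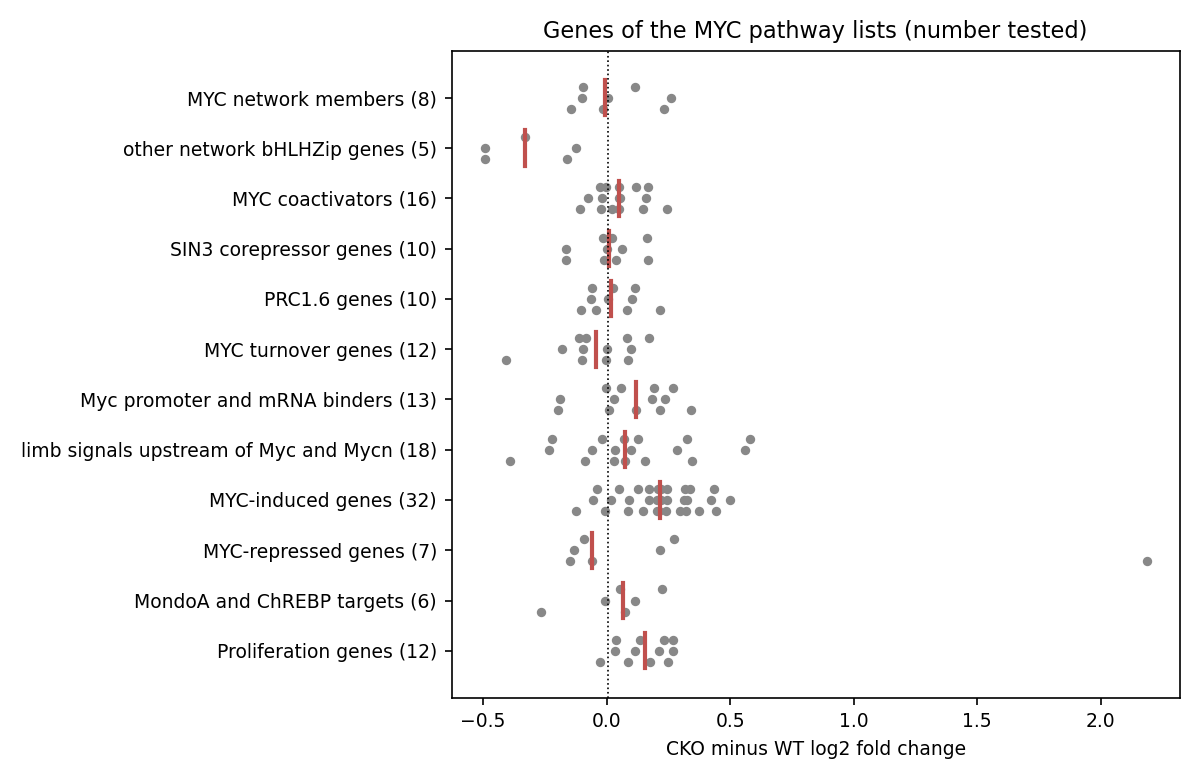
CKO minus WT log2 fold change (x axis) of the tested genes in 12 lists around the MYC network, with 1 grey point per gene (spread vertically for view), the median of each list in red and the median of all tested genes as a dotted line. The point at 2.19 is *Cdkn1a*, and the list of MYC-induced genes has 28 of its 32 points above 0.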

How the data were processed

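RNA-seq of WT and CKO limb buds was analysed, and the other assays of the study were not used here. The authors used a stranded mRNA kit and deposited gene values as FPKM. The submitters' processing notes name cutadapt 2.5, HISAT2 2.1.0, Bowtie2 2.11.1, featureCounts 1.6.3, MACS2 2.1.2 and the build mm10, with no role or order. FPKM times the merged exon length of GENCODE vM21 (GRCm38) gave whole reads in all 6 libraries for 92.6% of the matched genes, within a tolerance of 0.1 reads. The median ratio of a library to the geometric mean of libraries lay between 0.983 and 1.01.

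Genes whose mean FPKM reached 0.5 were tested on log2(FPKM + 0.1), which understates changes of low genes, by limma 3.58.1 (R 4.3.3) with a mean-variance trend, two-sided, and adjusted by Benjamini-Hochberg over all 12305 genes. The model, with and without the replicate block, was tested on simulated data. Tables and plots were made in Python 3.11.15. Labels give the numbers 1 to 3 to both groups. Deviations from group means correlated across genes by 0.64, 0.44 and 0.27 for the libraries numbered 1, 2 and 3, all over 0.1. A shared number was therefore treated as a pair in the fits with the replicate block, while the main fit used no block. Number 1 alone stands out: the crossed pairs of numbers 2 and 3 reached 0.49 (WT 2, CKO 3) and 0.31 (WT 3, CKO 2), above the values of 0.44 and 0.27, and what a number stands for is not given in the sources used here. In the main fit, the p values rest on the spread between biological replicates of a genotype, which includes differences that go with the replicate number. With the block, they rest on the spread left after these differences.

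Named are the members, the other network genes, *Hnrnpk*, of each list the called genes and the highest and lowest log2 fold change, the 2 genes most like each member, and the marker most abundant or called with the block. *Pitx1* is named beside *Tbx5* because it is of the same list and its values went the other way. Members and lists were chosen with earlier results of these data known. The listed genes *Cip2a* and *Ahsp* were not matched. Alternatives were pseudocounts, filters, scalings, moderation, the replicate block, libraries left out and voom on recovered reads.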

Additional observations from a re-analysis of the deposited data

How the results depend on the processing

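The fold changes, counts of calls and list medians were recomputed under 19 alternatives (18 for *Mlxipl*, which a filter at 1 FPKM leaves out); library sums and likeness were not, and replicate 1 ratios were recomputed under the rescaling outside the red blood cell markers alone. No member was called under any of them (lowest limma adjusted *p* 0.0797, for *Mycn* in the libraries numbered 2 and 3 alone). The log2 fold changes of *Mycn*, *Mycl*, *Max* and *Mga* kept their sign. That of *Myc* turned under median-ratio scaling (0.00047), quantile normalization (0.0011), in the libraries numbered 2 and 3 alone (0.078) and with voom (0.0074), and that of *Mxi1* after rescaling outside the red blood cell markers (-0.10) and in the libraries numbered 2 and 3 alone (-0.0048); the cause was not tested. The rescaling moved the median of all genes to -0.10. Over the fits that omit a single library, values ran from -0.32 to 0.39 for *Myc*, 0.024 to 0.57 for *Mycn*, -0.15 to -0.059 for *Mycl*, 0.045 to 0.16 for *Max*, 0.060 to 0.45 for *Mga*, -0.037 to 0.050 for *Mxi1*, -0.39 to 0.073 for *Mnt* and -0.21 to 0.091 for *Mlx*. Among other genes the sign turned for *Mcm6* (0.030) and *Pcgf6* (0.031) in the libraries numbered 2 and 3 alone, and the ranges were -0.27 to 0.037 for *Mxd3*, -0.37 to 0.0039 for *Mlxip*, -0.074 to 0.030 for *Mcm6*, -0.019 to 0.63 for *Pklr* and -0.37 to 0.077 for *Trrap*. Over the same fits, values ran from -0.25 to -0.050 for *Sin3b*, 0.10 to 0.26 for *Rbbp7* and -0.17 to -0.026 for *Pcgf6*. They ran from 0.10 to 0.36 for *Cbx3*, 0.14 to 0.38 for *Ccnt1* and -0.18 to -0.042 for *Ubtf*.

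The counts of genes called higher and lower, 7 and 1, were 139 and 207 with the replicate block, 235 and 393 with voom and the replicate block, 867 and 984 in the libraries numbered 2 and 3 alone, 13 higher with quantile normalization, 4 and 0 after the rescaling, 0 and 0 with the ordinary linear model and 0 lower without the filter. Omitting a single library, they ranged from 1 to 10 higher and from 0 to 13 lower. The block changed no call of a member and, among the network and list genes named, called *Spry4* alone in addition; of all markers it called *Tbx5* lower and *Actc1* higher. With voom and the block, *Hnrnpk*, *Mxd4*, *Usp28*, *Fgfr2* and *Spry4* were called in addition, and in the libraries numbered 2 and 3 alone these and *Fubp1*, *Npm1* and *Pklr*. Depth limits *Mlxipl*, on 39 to 83 reads.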
